A study of Mus musculus with 16 samples.

Results

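The genes described here are 3830406C13Rik, Pon3, Pon2, Pon1 and Lxn, 5 of the 17097 genes with a probe set of their own on the array, read by 8 of its 45141 probe sets. All but Pon1 were chosen by their measured difference between Foxp3gfp knock-in (KI) and wild type (WT) cells, since earlier results of these data had them lower in KI in regulatory and in conventional T cells, and Pon1 was added as the family neighbour. Their differences between KI and WT are therefore a description, with no test, apart from Pon1. Differences between the cell types played no part in the choice and were tested. The cells were splenic CD4 T cells of NOD/LtJ mice aged 6 weeks, a strain prone to autoimmune diabetes, and RNA was read on 16 Affymetrix arrays, 4 in each of 4 groups.

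The groups were KI regulatory T cells (Tregs), WT Tregs, KI conventional T cells (Tconv) and WT Tconv. KI mice carried Foxp3tm2Ayr, a knock-in that joins GFP to Foxp3, the transcription factor that defines Tregs. WT mice carried Tg(Foxp3-EGFP/cre)1aJbs, a transgene expressing EGFP with Cre from Foxp3 control elements, so neither genotype lacked a Foxp3 reporter. The labels name GFP-negative sorting for every sample, Tregs included, which leaves the Treg gate unclear. Separate mice behind the arrays of a group are not stated either, and p-values measure only the spread between these arrays, which may be technical.

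Paraoxonases are enzymes that open lactone rings and are named after the breakdown of paraoxon. Pon1 and Pon3 proteins are made mostly in the liver and travel in blood on high-density lipoprotein, and Pon2 is a membrane-bound enzyme of many tissues that limits oxidative stress inside cells. Latexin, the Lxn protein, inhibits metallocarboxypeptidases of the A type, and in mice it limits the number of blood stem cells. For 3830406C13Rik, a gene known by its RIKEN name, no role is given here.

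The members lie on 3 chromosomes (RefSeq, GRCm38.p6). The paraoxonase genes stand side by side on chromosome 6, with Pon1 at chr6:5168090-5193987, Pon3 at chr6:5216256-5256285 and Pon2 at chr6:5264620-5298345, and 8.34 kb separate Pon3 from Pon2. Lxn is at chr3:67457999-67463907 and 3830406C13Rik at chr14:12284153-12324492. The 250 bases before the start that RefSeq's promoter table uses are shown for each gene. Lower values in KI in both cell types had picked 4 of the genes, while Pon1, from the same cluster, lay near background on every array. The bases shown are RefSeq sequence, 5′ to 3′ on the strand of the gene, with capitals for matches to 9 searched motifs. A gene's span covers all its transcripts, and the start used lies inside it for every member but Lxn, so the last 52 bases shown for Pon3, 5 for Pon2, 41 for Pon1 and 50 for 3830406C13Rik fall within the span. Where the table lists more than 1 start for a gene, the first was used.
Pon3, chr6:5256234-5256483, minus strand: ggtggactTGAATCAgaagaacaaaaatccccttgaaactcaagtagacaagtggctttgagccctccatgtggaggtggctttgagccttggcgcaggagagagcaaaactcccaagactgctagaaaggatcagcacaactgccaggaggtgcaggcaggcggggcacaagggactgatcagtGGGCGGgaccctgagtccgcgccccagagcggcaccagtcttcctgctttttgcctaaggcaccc
Pon2, chr6:5298341-5298590, minus strand: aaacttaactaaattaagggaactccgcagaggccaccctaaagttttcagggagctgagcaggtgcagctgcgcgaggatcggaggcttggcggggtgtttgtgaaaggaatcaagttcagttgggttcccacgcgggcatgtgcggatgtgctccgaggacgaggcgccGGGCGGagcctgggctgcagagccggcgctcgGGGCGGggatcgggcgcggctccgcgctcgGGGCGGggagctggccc
Pon1, chr6:5193947-5194196, minus strand: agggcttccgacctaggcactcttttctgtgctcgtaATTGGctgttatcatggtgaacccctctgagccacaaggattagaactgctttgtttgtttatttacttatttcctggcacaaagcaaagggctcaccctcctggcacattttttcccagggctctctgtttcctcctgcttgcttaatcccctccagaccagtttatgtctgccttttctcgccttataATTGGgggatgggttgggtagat
Lxn, chr3:67463908-67464157, minus strand: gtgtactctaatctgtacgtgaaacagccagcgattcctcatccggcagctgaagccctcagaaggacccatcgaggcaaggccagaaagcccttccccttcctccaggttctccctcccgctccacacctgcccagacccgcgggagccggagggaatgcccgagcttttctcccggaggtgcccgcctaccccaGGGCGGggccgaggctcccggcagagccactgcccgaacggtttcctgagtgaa
3830406C13Rik, chr14:12283953-12284202, plus strand: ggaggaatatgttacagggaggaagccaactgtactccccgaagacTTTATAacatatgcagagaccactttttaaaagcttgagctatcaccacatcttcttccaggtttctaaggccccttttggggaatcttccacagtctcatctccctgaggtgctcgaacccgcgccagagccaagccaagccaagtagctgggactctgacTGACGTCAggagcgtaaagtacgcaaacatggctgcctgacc

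Both strands were searched, so a match reads as the letters or as their reverse complement. The GC box GGGCGG, which 32.7% of 32851 such windows hold, occurs 3 times before Pon2 and 1 time each before Pon3 and Lxn. Pon3 also holds the AP-1 letters TGANTCA (6.75% of windows), and Pon1 holds the letters CCAAT (33.8%) at 2 places, both on the other strand, the nearer of them inside the span of the gene. The window of 3830406C13Rik has the cyclic AMP response element TGACGTCA, found in 1.55% of windows, at 42 to 35 bases before the start used and so inside the span, and the TATA letters TATAAA (12.4%) on the other strand. None of the 5 windows holds the forkhead letters TGTTTAC (3.17%), the antioxidant response element core TGACNNNGC (10.2%), the ETS core CCGGAA (12%) or the E-box CACGTG (6.02%). CpG dinucleotides number 24 before Pon2, 16 before Lxn, 7 before 3830406C13Rik, 6 before Pon3 and 3 before Pon1, with a median of 6 over all windows. These letters are of the reference mouse genome and not of NOD/LtJ.

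Values are log2 expression from RMA, which corrects background, equalises the arrays and summarises each probe set, and values of different probe sets are not compared. Across 23 control probe sets that match no transcript, the median was 2.60 and the maximum 4.71. Levels under about 5 thus lie near background, where a difference understates the true fold. Foxp3 lay between 9.39 and 10.16 on the 8 Treg arrays and between 3.57 and 4.96 on the 8 Tconv arrays. Of 8 T cell markers 7 were on the array, all 7 above 5 on at least 4 arrays. The marker means of 10 other cell types, from B cells to blood progenitors, overlapped between KI and WT in both cell types. Some of these means varied widely within a group. That of neutrophils ran from 4.38 to 6.58 in KI Tregs and from 3.30 to 6.41 in WT Tregs. The overlap therefore does not show that the arrays held equal or small amounts of RNA from other cells. The mean of the 6 Treg markers did not overlap in Tconv, where it was 6.21 to 6.30 in KI and 6.51 to 6.74 in WT. Of these markers 2 were lower in KI Tconv by limma, Foxp3 (-0.93, adjusted p = 0.0104) and Ikzf2, the gene of a Treg transcription factor (-0.83, adjusted p = 5.8e-06). Of all genes, 0.135% passed between KI and WT Tconv. Foxp3 was under 5, near background, on all Tconv arrays and passed the filter, a value above 5 on at least 4 arrays, through Treg arrays.

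**Figure D1:**
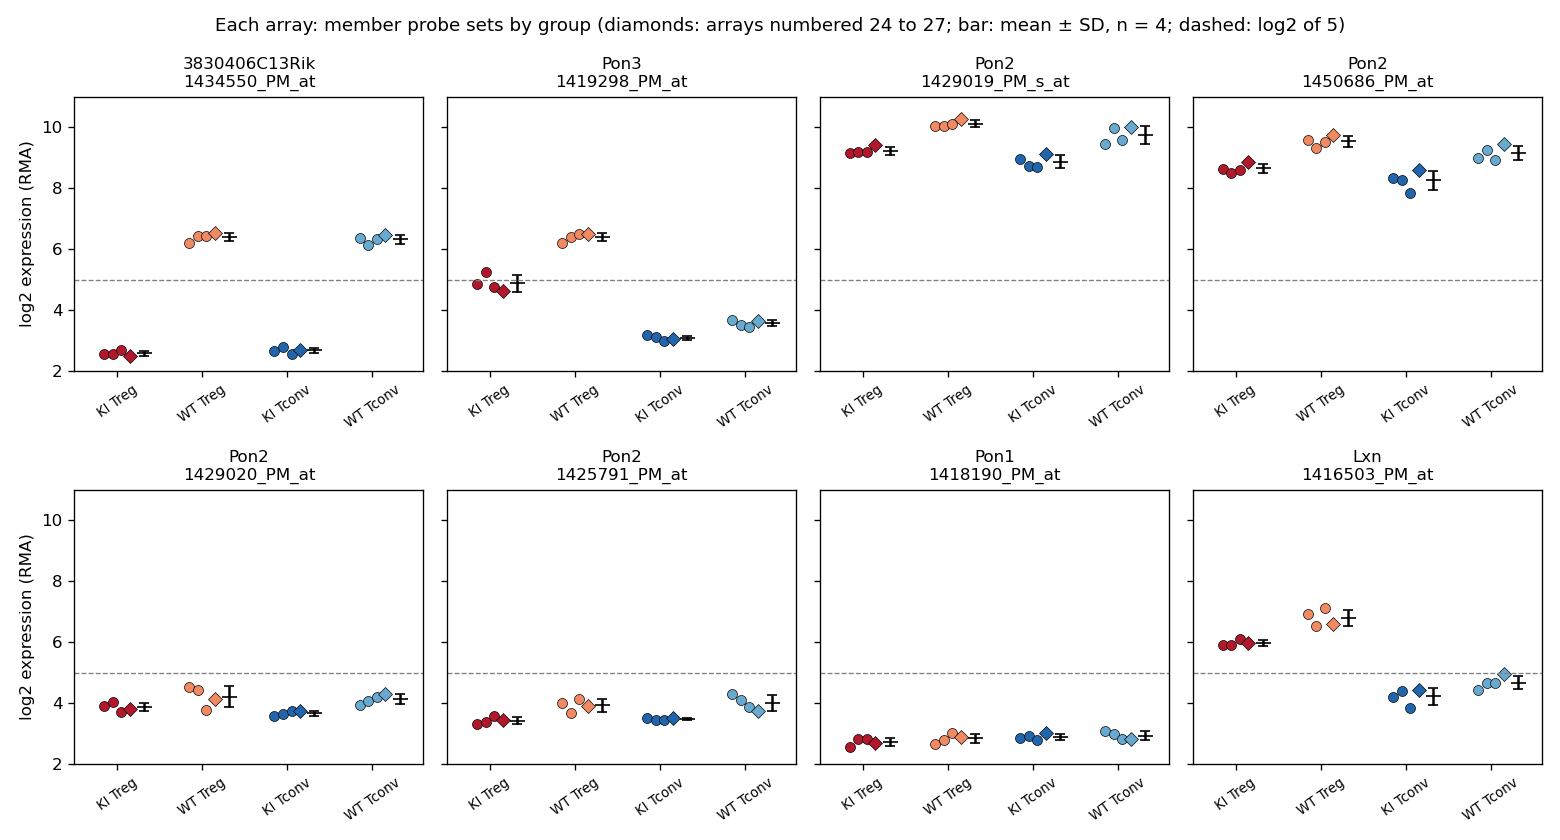
Log2 RMA expression (y) of the 8 member probe sets on each of the 16 arrays, by group (x), with bars for the mean ± SD of 4 arrays, diamonds for samples numbered 24 to 27 and a dashed line at 5. 3830406C13Rik sits between 2.49 and 2.80 on the 8 KI arrays and between 6.13 and 6.53 on the 8 WT arrays, while Pon1 reaches 3.10 at most.

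The transcript of 3830406C13Rik was at background in KI cells and well above it in WT cells of both types. In Tregs it read 2.58, 2.58, 2.70 and 2.49 on the KI arrays, against 6.21, 6.42, 6.45 and 6.53 on the WT arrays. In Tconv it read 2.67, 2.80, 2.58 and 2.69 in KI, against 6.36, 6.13, 6.33 and 6.48 in WT. The genotypes lay far apart, and all 8 KI values were close to the median of the control probe sets. The KI minus WT difference was -3.82 in Tregs (SE 0.128, n = 4 and 4), 14.1-fold lower in KI, and -3.64 in Tconv (SE 0.128), 12.5-fold lower. It ranked 1 from the lowest among 8139 genes tested in each cell type. The gene passed the filter, a value above 5 on at least 4 arrays, only through its 8 WT arrays. No difference between the cell types passed: Tregs less Tconv was -0.10 in KI (SE 0.128, limma adjusted p = 0.578) and 0.08 in WT (SE 0.128, adjusted p = 0.695).

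Pon3 was higher in Tregs than in Tconv in both genotypes, and its values were lower in KI. In Tregs it read 4.86, 5.26, 4.74 and 4.64 on the KI arrays, against 6.20, 6.41, 6.51 and 6.49 on the WT arrays. In Tconv it read 3.18, 3.13, 2.998 and 3.05 in KI, against 3.68, 3.53, 3.45 and 3.64 in WT. No KI array reached a WT array of its cell type, and all 8 Tconv arrays lay near background. Tregs exceeded Tconv by 1.79 in KI (3.46-fold, SE 0.146, limma adjusted p = 1.36e-08) and by 2.83 in WT (7.09-fold, SE 0.146, adjusted p = 3.38e-11), with all 4 Treg arrays higher each time. The gene passed the filter through the 4 WT Treg arrays and 1 KI Treg array, and with 3 of 4 KI Treg arrays under 5 its folds may be understated. The KI minus WT difference was -1.53 in Tregs (SE 0.146, 2.88-fold lower), rank 3 from the lowest, and -0.49 in Tconv (SE 0.146, 1.41-fold lower), rank 81. The difference between these values, -1.04, rests on the contrasts that chose the gene and was not tested.

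Pon2 was above background on all arrays by 2 of its 4 probe sets, and its values were lower in KI by a similar amount in both cell types. Its brightest probe set, 1429019_PM_s_at, read 9.15, 9.17, 9.17 and 9.43 in KI Tregs, against 10.03, 10.03, 10.11 and 10.28 in WT Tregs. In Tconv it read 8.94, 8.72, 8.69 and 9.14 in KI, against 9.44, 9.98, 9.57 and 10.001 in WT. KI and WT arrays did not overlap in either cell type. The KI minus WT difference was -0.88 in Tregs (1.84-fold lower, SE 0.124) and -0.87 in Tconv (1.83-fold lower, SE 0.124). The s in its name marks probes that match several transcripts, so the other bright Pon2 probe set, 1450686_PM_at, was read beside it. It averaged 8.65 ± 0.15 in KI Tregs and 9.53 ± 0.17 in WT Tregs (SD, n = 4), and 8.25 ± 0.31 in KI Tconv and 9.14 ± 0.24 in WT Tconv. Its differences, -0.88 in Tregs and -0.89 in Tconv, were close to those of 1429019_PM_s_at.

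The other 2 of the 4 Pon2 probe sets never exceeded 5. Probe set 1425791_PM_at averaged 3.43 ± 0.11 in KI Tregs and 3.93 ± 0.20 in WT Tregs, and 3.47 ± 0.03 in KI Tconv and 4.01 ± 0.26 in WT Tconv (SD, n = 4). Its KI arrays were all below the WT arrays of their cell type. Probe set 1429020_PM_at averaged 3.86 ± 0.13 in KI Tregs and 4.22 ± 0.33 in WT Tregs, which overlapped, and 3.67 ± 0.08 in KI Tconv and 4.13 ± 0.16 in WT Tconv, which did not. All 4 Pon2 probe sets had lower means in KI in both cell types.

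Pon2 was slightly higher in Tregs than in Tconv by its bright probe sets. On 1429019_PM_s_at the difference was 0.36 in KI (1.28-fold, SE 0.124, limma adjusted p = 0.0275) and 0.37 in WT (1.29-fold, SE 0.124, adjusted p = 0.0282), and all 4 Treg arrays lay above all 4 Tconv arrays in each genotype. On 1450686_PM_at the arrays of the cell types overlapped in each genotype, with differences of 0.40 in KI and 0.39 in WT. They also overlapped on the probe sets near background, which went both ways. The differences there were 0.19 in KI and 0.09 in WT on 1429020_PM_at, and -0.04 in KI and -0.08 in WT on 1425791_PM_at. The KI call ended without KI Treg 4 (0.29, limma adjusted p = 0.0831), KI Tconv 2 (0.31, adjusted p = 0.0842) or KI Tconv 3 (0.30, adjusted p = 0.0903). The WT call ended without WT Treg 3 (0.37, limma adjusted p = 0.0551), WT Treg 4 (0.31, adjusted p = 0.0835), WT Tconv 1 (0.26, adjusted p = 0.108) or WT Tconv 3 (0.31, adjusted p = 0.0918), and with the mean of all 4 probe sets (0.19, adjusted p = 0.0754).

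Pon1 gave no signal above background on any array. It read 2.58, 2.83, 2.82 and 2.69 in KI Tregs, against 2.67, 2.80, 3.03 and 2.88 in WT Tregs. In Tconv it read 2.86, 2.94, 2.79 and 3.02 in KI, against 3.10, 3.002, 2.82 and 2.83 in WT. The groups overlapped in each comparison. As Pon1 did not pass the filter, its 4 comparisons were made with a permutation test, exact and two-sided, whose 70 assignments allow a p of 0.0286 at the smallest. Tregs less Tconv was -0.17 in KI (exact p = 0.0857) and -0.09 in WT (exact p = 0.4). KI minus WT was -0.12 in Tregs (exact p = 0.286) and -0.04 in Tconv (exact p = 0.657), all unadjusted.

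Lxn, like Pon3, was higher in Tregs. It read 5.91, 5.90, 6.12 and 5.97 in KI Tregs, against 6.91, 6.54, 7.12 and 6.60 in WT Tregs. In Tconv it read 4.21, 4.39, 3.84 and 4.44 in KI, against 4.42, 4.65, 4.66 and 4.95 in WT. All KI arrays were lower in Tregs, whereas in Tconv, near background, the genotypes overlapped. Tregs exceeded Tconv by 1.75 in KI (3.37-fold, SE 0.157, limma adjusted p = 4.85e-08) and by 2.12 in WT (4.35-fold, SE 0.157, adjusted p = 4.86e-09), with all 4 Treg arrays higher each time. It passed the filter through the 8 Treg arrays. The KI minus WT difference was -0.82 in Tregs (1.76-fold lower, SE 0.157) and -0.45 in Tconv (1.37-fold lower, SE 0.157). Of 5 markers of blood progenitors, cells in which latexin has a known role, 4 were on the array and 0 passed the filter, with means of 2.96 to 3.28 in KI Tregs, 3.02 to 3.26 in WT Tregs, 3.02 to 3.14 in KI Tconv and 2.99 to 3.11 in WT Tconv.

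Of the 4 members tested, 3 were higher in Tregs in each genotype, Pon3, Pon2 and Lxn, where 21.2% of genes were higher in KI and 16.7% in WT. The same 3 were higher on every Treg array, as were 17.7% of genes in KI and 17.6% in WT. Pon3 and Lxn passed the filter through Treg arrays, so this count supports nothing about the members as a group. By size, Pon3 ranked 224 and Lxn 236 from the highest in KI, and Pon3 36 and Lxn 94 in WT.

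Some markers of other cells differed between Tregs and Tconv too. The mean of the 2 CD8 T cell markers was 5.85 to 6.26 in KI Tregs against 5.18 to 5.61 in KI Tconv, and 6.11 to 6.45 in WT Tregs against 4.80 to 5.19 in WT Tconv. Only Cd8a of the 2 passed, higher in Tregs by 1.82 in KI (limma adjusted p = 2.04e-07) and 2.35 in WT (adjusted p = 8.83e-09). Cd8b1, the gene of the other CD8 chain, differed by -0.26 in KI (limma adjusted p = 0.0934) and 0.08 in WT (adjusted p = 0.658). Both tested NK cell markers of 6, Nkg7 and Eomes, were higher in Tregs in each genotype. So were 1 of 3 tested B cell markers, Cd79b, and 1 of 2 plasma cell markers, Xbp1, while 1 of 2 monocyte and macrophage markers, Cd68, was higher in KI by limma. Of all genes, 21.2% were higher in Tregs in KI and 16.7% in WT. Cd8a and Cd68 stayed under 5 on every Tconv array, so they passed the filter through Treg arrays. Of the NK cell markers not tested, which averaged under 5, Klrk1 and Klrb1c were lower in Tregs in each genotype, Ncr1 was higher and Gzma went both ways. The means of the NK cell, B cell, plasma cell and monocyte lists overlapped between Tregs and Tconv. The mean of the 7 T cell markers was 10.33 to 10.50 in KI Tregs against 10.55 to 10.57 in KI Tconv, lower on every Treg array, and 10.31 to 10.44 in WT Tregs against 10.42 to 10.57 in WT Tconv, which overlapped. Of these 7, Cd4 and Thy1 were lower in KI Tregs and Cd4 and Cd247 in WT Tregs, where 1620 and 1458 of all 8139 genes were lower. The part of these markers in the differences of Pon3, Pon2 and Lxn was not tested.

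In the contrast that chose the members, 5 of their 5 probe sets above the filter were lower on every KI array in Tregs and 4 of 5 in Tconv. The shares were 3.09% and 1.04% of the 12927 probe sets of 1 gene above the filter. 3830406C13Rik, Pon2 and Pon3 are among the 16 genes that were lower on every KI array in both cell types (0.197%). Nothing is read from these counts, which the choice of members fixes. Ranked by the smaller of both differences, 3830406C13Rik was 1, Pon2 4, Pon3 15 and Lxn 17 from the lowest. In Tconv the lower means of Pon3 and Lxn, both higher in Tregs, stand beside the lower Treg marker mean of KI Tconv, whose part in them was not tested. In these bulk samples fewer cells of a type and less RNA per cell cannot be told apart.

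**Figure D2:**
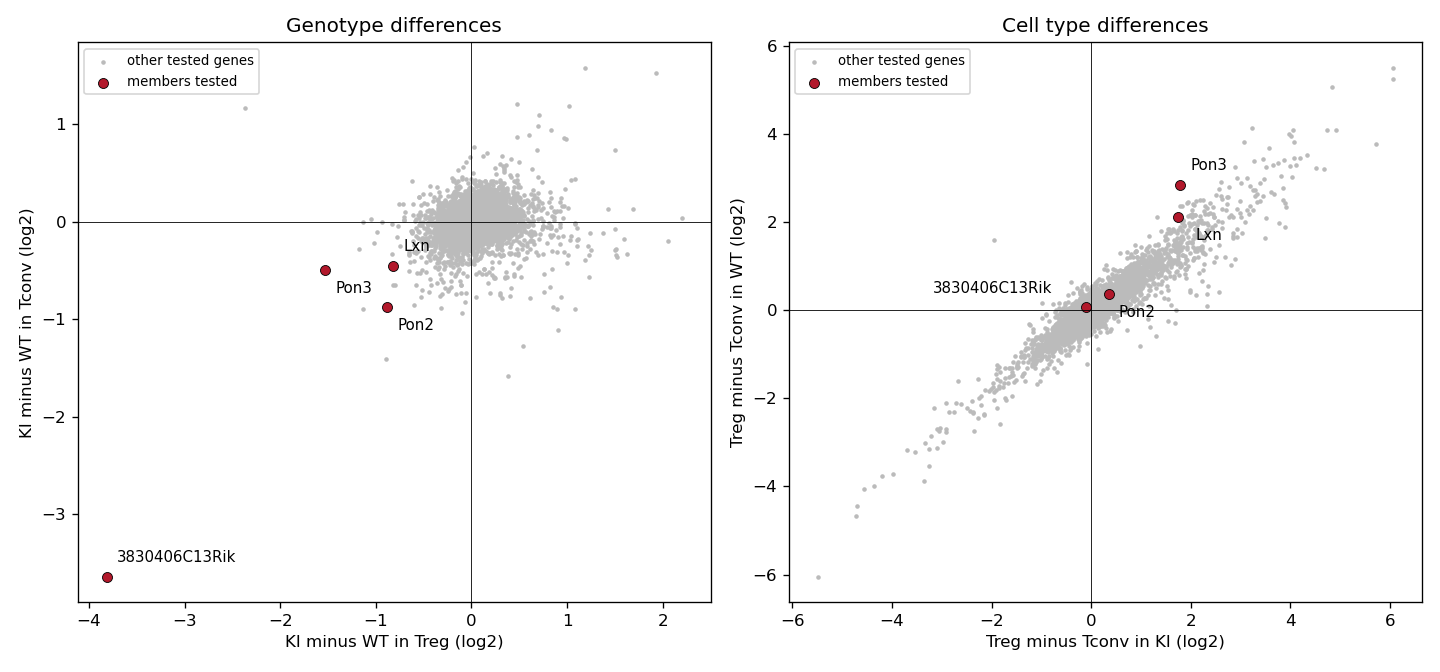
Log2 differences of all 8139 tested genes and, marked by name, of the 4 members tested. In the panel of KI minus WT, Tregs (x) against Tconv (y), 3830406C13Rik lies at -3.82 and -3.64, and in the panel of Tregs less Tconv, KI (x) against WT (y), Pon3 lies at 1.79 and 2.83.

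Sample titles carry running numbers, 4 to 9 in WT, 13 to 23 in KI and 24 to 27 in both, with 1 sample of each group in the last range. The labels do not say what the numbers stand for. Within 24 to 27, with no test, KI minus WT in Tregs was -4.04 for 3830406C13Rik, -1.85 for Pon3, -0.85 for Pon2 and -0.63 for Lxn. In Tconv it was -3.79 for 3830406C13Rik, -0.60 for Pon3, -0.87 for Pon2 and -0.51 for Lxn. All 4 were lower in KI within this range, but its arrays are among those that chose the genes. Nothing is read from the shared sign. Tregs less Tconv for Pon3 was 1.86 within KI samples 13 to 23, 1.59 within KI samples of the last range, 2.82 within WT samples 4 to 9 and 2.85 within WT samples of the last range. For Lxn these values were 1.83, 1.53, 2.28 and 1.65, and for Pon2 0.38, 0.29, 0.40 and 0.28.

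No neighbouring gene passed between KI and WT. For each locus the 10 nearest protein-coding genes on each side were taken, 60 in all, of which 50 were on the array and 22 passed the filter. Of these, 0 passed in Tregs and 0 in Tconv by limma, where 2.84% and 0.135% of all genes passed. At an unadjusted p under 0.05, 3 were higher in KI Tregs, 2 higher in KI Tconv and 0 lower in either. Of all 8139 genes tested, 906 were higher and 441 lower in KI Tregs, and 244 higher and 236 lower in KI Tconv. Those neighbours were Sem1 (0.14), Sdhaf3 (0.32) and 1110032F04Rik (0.42) in Tregs, and Gfm1 (0.15) and Pxk (0.24) in Tconv, named after their values were seen. The median difference of all tested neighbours was 0.05 in Tregs and -0.03 in Tconv, against 0.04 and 0.01 over all genes. Leaving out KI Treg 4 gave 1 neighbour that passed, Asns (0.66 in Tregs, limma adjusted p = 0.0437).

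Gfm1, a mitochondrial translation factor gene whose span encloses Lxn, averaged 7.84 ± 0.10 in KI Tregs and 7.78 ± 0.04 in WT Tregs, and 8.05 ± 0.04 in KI Tconv and 7.90 ± 0.09 in WT Tconv (SD, n = 4). Its KI minus WT difference was 0.06 in Tregs (limma adjusted p = 0.688) and 0.15 in Tconv (adjusted p = 0.826). On the other side of Lxn, at 15 kb, Rarres1, whose protein is related to latexin, averaged 2.77 in KI Tregs and 2.78 in WT Tregs, at background. The flanking genes of the other loci that the array named were near background as well. Ppp1r9a, beside Pon1, averaged 3.30 in KI Tregs and 3.50 in WT Tregs. Ptprg and Fezf2, on either side of 3830406C13Rik, averaged 2.82 and 2.77 in KI Tregs, against 2.85 and 2.71 in WT Tregs.

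**Figure D3:**
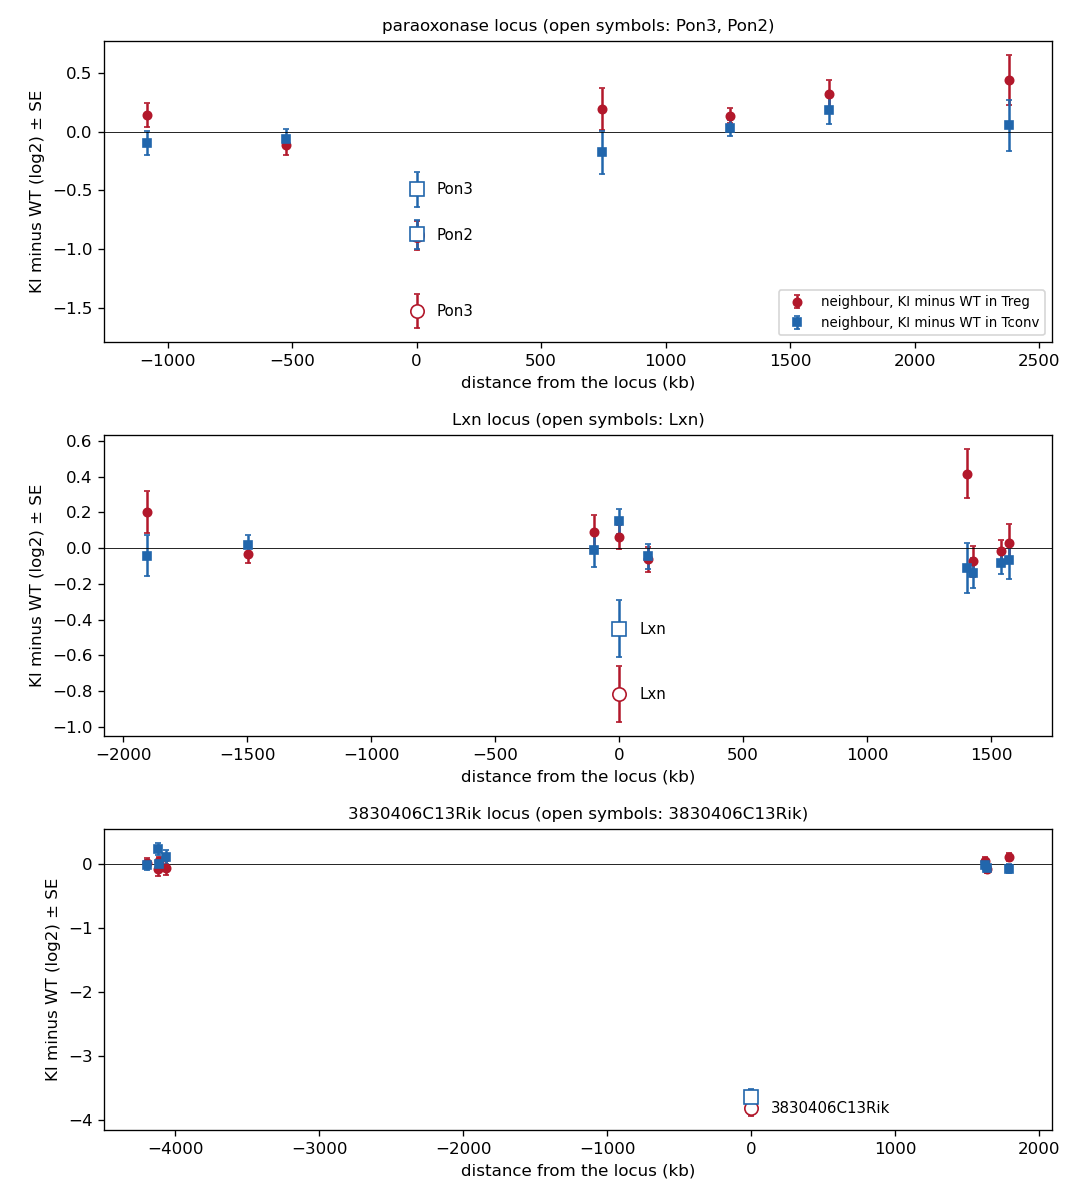
KI minus WT log2 differences ± SE (limma, n = 4 and 4; y) in Tregs (circles) and Tconv (squares) by distance in kb from each locus (x), for the 22 tested neighbours (filled) and the members (open, at distance 0). The neighbours lie between -0.18 and 0.44, and the members between -3.82 and -0.45.

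The genes most like a member over the 16 arrays were found by Pearson r, as a description, since all genes share the same arrays and groups. For 3830406C13Rik they were Ccdc22 (r = 0.947), Gpkow (0.826), Zfp87 (0.797), Jak2 (0.759) and Parp8 (0.757). For Pon2 they were Ccdc22 (0.873), Gpkow (0.835), Ppp1r3f (0.832), Il18r1 (0.832) and Exo5 (0.815). Of these, Ccdc22, Gpkow and Ppp1r3f lie on the X chromosome near Foxp3: the span of Ccdc22 overlaps it, and Ppp1r3f is 5.39 kb and Gpkow 102 kb away. Ccdc22 averaged 8.25 in KI Tregs and 9.38 in WT Tregs (-1.13, SE 0.112), and 8.25 in KI Tconv and 9.14 in WT Tconv (-0.89, SE 0.112). 3830406C13Rik and Pon2 themselves correlated at 0.867, and at -0.01 once the mean of each group was subtracted.

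For Pon3 the most alike genes were Hopx (r = 0.964), Pdzk1ip1 (0.96), Casp4 (0.954), St6galnac3 (0.952) and Flicr (0.949). For Lxn they were Hopx (0.976), Dst (0.972), Mbnl3 (0.962), Ppm1l (0.962) and Pros1 (0.962). Flicr also lies on the X chromosome, where its span overlaps that of Foxp3, and Mbnl3 is on the same chromosome at 43518 kb from Foxp3. Hopx, which encodes a homeodomain protein that does not bind DNA, led both lists. It averaged 6.51 in KI Tregs and 7.12 in WT Tregs, and 4.95 in KI Tconv and 5.27 in WT Tconv. Pon3 and Lxn correlated at 0.964 over the 16 arrays and at -0.06 about the group means, so their likeness lay between the groups and not among arrays of a group.

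Genes of related function were described by lists. Of 27 antioxidant genes 24 were on the array and 17 were tested. In KI against WT Tregs 1 was lower, Nfe2l2, and 0 were higher, where 69 of all 8139 genes were lower and 162 higher. Nfe2l2, the gene of a factor that switches on antioxidant enzymes, averaged 7.98 ± 0.14 in KI Tregs and 8.41 ± 0.13 in WT Tregs (-0.43, SE 0.0904, limma adjusted p = 0.0128). In Tconv its difference was -0.15 (limma adjusted p = 0.851). There 0 of 17 passed by limma, where 0.135% of all genes did. At an unadjusted p under 0.05 it was also 0 of 17, beside 244 higher and 236 lower of all 8139 genes. The median of the list was 0.07 in Tregs and -0.02 in Tconv.

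Between the cell types the antioxidant genes went both ways. In Tregs against Tconv 8 of 17 were higher and 3 lower in KI, and 5 higher and 3 lower in WT, where 41.1% and 34.6% of all genes passed. Nfe2l2 was lower in Tregs, with a difference of -1.36 in KI (limma adjusted p = 8.34e-10) and -1.07 in WT (adjusted p = 2.86e-08). The glutathione reductase gene Gsr was higher in Tregs by 0.51 in KI (limma adjusted p = 0.0018) and 0.70 in WT (adjusted p = 0.000124). The peroxiredoxin gene Prdx2 was higher by 0.59 in KI (limma adjusted p = 2.03e-05) and 0.43 in WT (adjusted p = 0.000599). The median of the list was 0.17 in KI and 0.09 in WT, against -0.02 and -0.03 over all genes.

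In the other lists no gene passed between KI and WT in either cell type by limma, where 2.84% of all genes passed in Tregs and 0.135% in Tconv. The first list, on lipoproteins, cholesterol and receptors, held 6 tested genes, Abcg1, Ahr, Arnt, Rxra, Rxrb and Srebf2, and no tested lipoprotein gene. The others held 8 tested genes of serine esterases and lipases, 4 of metallocarboxypeptidases and 3 of cystatin-fold inhibitors. At an unadjusted p under 0.05, 1 gene of the first list, Ahr (0.59, limma adjusted p = 0.0825), had higher values in KI Tregs. So had 1 of the third, Cpm (0.37, adjusted p = 0.182), while 1 of the third, Cpd (-0.65, adjusted p = 0.727), had lower values in KI Tconv. Of all 8139 genes tested, 906 were higher in KI Tregs and 236 lower in KI Tconv at that threshold. The medians of KI minus WT, in the order of the lists, were 0.04, 0.09, 0.11 and 0.18 in Tregs, and -0.02, -0.01, -0.01 and -0.05 in Tconv.

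Between the cell types, 2 of the 6 tested genes of the first list were higher in Tregs in KI and 1 in WT, where 21.2% and 16.7% of all genes were higher. Ahr, which encodes a receptor for aromatic compounds, was higher by 3.34 in KI (SE 0.173, limma adjusted p = 2.45e-11) and 2.45 in WT (adjusted p = 2.57e-09). Of the esterases and lipases 1 was higher and 3 lower in KI, and 0 higher and 2 lower in WT, where 41.1% and 34.6% of all genes passed in either direction. The lower ones in WT were Faah, whose enzyme breaks down fatty acid amides (-0.63, limma adjusted p = 0.000281), and Pafah2, whose enzyme breaks down platelet-activating factor (-0.66, adjusted p = 0.00412). Pafah2 lay near background in WT, with means of 4.09 in Tregs and 4.75 in Tconv. It passed the filter through KI Tconv, where it averaged 5.08.

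Among metallocarboxypeptidases, the class that latexin inhibits in part, 2 of 4 were higher and 1 lower in Tregs in KI. In WT 1 was higher and 1 lower, beside the same 41.1% and 34.6% of all genes. The 4 were Agbl5, Agtpbp1, Cpd and Cpm, so no Cpa gene, of the A type that latexin inhibits, was tested. Cpd, a carboxypeptidase gene of the secretory pathway, averaged 6.96 ± 0.52 in KI Tregs and 4.52 ± 0.38 in KI Tconv (2.44, limma adjusted p = 1.68e-07). In WT it averaged 7.07 ± 0.18 in Tregs and 5.17 ± 0.39 in Tconv (1.89, limma adjusted p = 5.39e-06). Agtpbp1, which encodes a carboxypeptidase that trims tubulin, was lower in Tregs, with a difference of -0.30 in KI (limma adjusted p = 0.00139) and -0.25 in WT (adjusted p = 0.00639). Of the cystatin-fold genes 3 of 3 were higher in Tregs in KI and 2 in WT, beside 21.2% and 16.7% of all genes. Cst7 was higher by 1.61 in WT (limma adjusted p = 1.9e-07), and Cst3, the gene of a secreted inhibitor of cysteine proteases, by 0.50 (adjusted p = 0.00921).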

How the data were processed

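The deposited values are log2 expression per probe set, made by the authors with RMA in Partek 6.5 per the submitters' processing notes, with options not given in the sources used here. Sample columns were matched by name, 28898 probe sets had 1 gene in the array annotation (28689 updated by Entrez identifier), and each of 17097 genes was read by its probe set with the highest mean. Genes above 5 on at least 4 arrays, 8139, were fitted with limma 3.58.1 in R 4.3.3, with 1 mean per group over all 16 arrays and trended moderated variances. P-values are two-sided, Benjamini-Hochberg adjusted over all genes, with a threshold of 0.05. SE is limma's. The number of arrays limits the precision. Code was tested on simulated data. The members and lists were chosen with earlier results of these data known. Named genes are the members, direct neighbours, up to 3 genes per list and comparison with the lowest p among those that passed, and the 5 most alike per member. Sequences are RefSeq, GRCm38.p6, and all 5 members matched. Replicates were numbered in accession order. Alternatives changed the filter, probe set rule, variance model, centring, arrays and sample number blocks.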

Additional observations from a re-analysis of the deposited data

Results flagged for a closer look

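Of 32 sets of 4 values, 8 probe sets in 4 groups, 1 held an array far from the others. On the Pon2 probe set 1429019_PM_s_at, KI Treg 4, sample number 26, read 9.43, while the nearest other KI Treg array read 9.17, a gap of 0.913 of the range of the group. It was named because the gap passed a limit that chance passes in about 1 in 20 sets. The value lay on the side of the WT Treg arrays and below all of them.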

How the results depend on the processing

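No paired analysis was made because the labels give no pairing, and each sample has a number of its own. What the numbers stand for is not stated, so Tregs and Tconv may come from the same mice. The tests would ignore such a pairing. The Treg against Tconv calls of Pon3 and Lxn held in every alternative that gave a test, and 3830406C13Rik passed in none. The KI minus WT differences of these 3 and of Pon2 kept their sign. As that contrast chose the genes, nothing is read from the kept sign. Without single arrays, Pon2 in Tregs against Tconv ran from 0.293 to 0.446 in KI and from 0.265 to 0.453 in WT, with the lost calls given above, and the mean of its probe sets gave 0.19 in WT. Pon1 in KI Tregs against KI Tconv passed the exact test once arrays were centred on their medians (-0.20, exact p = 0.0286). Its KI minus WT difference in Tconv turned to 0.0342 with 3 ranges of sample numbers as a block and to 0.18 within numbers 24 to 27. Without single arrays it ran from -0.0768 to 0.0146, highest without WT Tconv 1. The cause was not tested.

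Within numbers 24 to 27, with no test, Tregs less Tconv was -0.20 for 3830406C13Rik, -0.33 for Pon1 and 1.53 for Lxn in KI, and 0.0528 for Pon1 and 1.65 for Lxn in WT. KI minus WT there was -4.04 in Tregs and -3.79 in Tconv for 3830406C13Rik, and -1.85 in Tregs and -0.60 in Tconv for Pon3. With 3 ranges as a block it was -4.003 in Tregs and -3.83 in Tconv for 3830406C13Rik and -0.71 in Tconv for Pon3. The mean of probe sets, which includes 2 near background, gave -0.65 for Pon2 in Tregs.

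Genes passing between KI and WT Tregs numbered 231, 29 with 3 ranges as a block and 422 without numbers 24 to 27. Without single arrays they ran from 101 to 571, with 101 without KI Treg 1, 106 without WT Treg 1, 126 without KI Treg 2, 130 without WT Treg 3, 139 without WT Treg 4 and 571 without KI Treg 4. In Tconv they numbered 11, 4 in a fit of the 8 Tconv arrays, 5 with 3 ranges as a block, 105 without numbers 24 to 27, 7 without KI Tconv 2 and 65 without KI Tconv 4. Neighbouring genes passing ran from 0 to 1 without single arrays, with 1 without KI Treg 4. The arrays of numbers 24 to 27 alone give no such counts. Levels under about 5 limit Pon1 in all groups, 3830406C13Rik in KI, Pon3 in Tconv and on 3 of 4 KI Treg arrays, and Lxn in Tconv.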
